A study of Mus musculus with 3 samples.

Results

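Genes of calcium entry, calcium extrusion and lipid signalling, Cacna1c, Cacna2d4, Atp2b2, Dgkg, Plce1 and Akap13 (6 genes), were followed in a ChIP-seq study of PARP-1 in the mouse nucleus accumbens. The 6 genes were chosen by name from a deposited list of sites at which PARP-1 signal differed between cocaine and saline, so their change after cocaine had already selected them. That change is described here and was not tested, and ratios at sites selected on the same libraries can be overstated. Each gene held 1 site, which makes 6 of the 770 listed sites in or near genes and 6 of the 688 genes with a listed site. The table listed 1727 sites in all.

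C57BL/6 mice were injected intraperitoneally with cocaine at 20 mg/kg (chronic cocaine group) or with saline, once per day for 7 days, and tissue was taken 30 minutes after the final injection. A replicate was chromatin from punches of 10 pooled mice, immunoprecipitated with the rabbit polyclonal antibody ab6079 against PARP-1, so variation between single mice was not measured. The labels state 3 replicates per group, called sequencing replicates in one place and biological in another, so their spread may be partly technical. The table carried 2 cocaine values and 3 saline values per site, numbered here by their order in it, and does not say which cocaine replicates the 2 are. A sample of DNA input was not analysed here, because the table has no column for it. Sources used here give neither age nor sex of the mice. In bulk tissue, more PARP-1 per cell and more cells with PARP-1 at a site cannot be told apart.

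PARP-1 is a nuclear enzyme that binds DNA breaks and chromatin and builds chains of ADP-ribose on itself and on neighbouring proteins. Of the genes described here, all but Akap13, a scaffold gene, act in calcium transport or lipid signalling. Voltage-gated channels let calcium into a depolarised neuron, plasma membrane pumps expel it, and phospholipase C cleaves a membrane lipid to inositol trisphosphate and diacylglycerol, which diacylglycerol kinases then convert to phosphatidic acid. In medium spiny neurons, the main neurons of the nucleus accumbens, L-type channels couple electrical activity to transcription. A PARP-1 site in such a gene is a measurement of the chromatin there and not of the gene's RNA or protein, neither of which was analysed here.

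Over the listed sites the 5 libraries held 82360 and 61292 reads (cocaine replicates) and 47757, 55084 and 46406 reads (saline replicates). By the authors' scaling the shallowest library was cocaine replicate 2, with 72.3% of the depth of the deepest, cocaine replicate 1. Saline replicate 3, with the fewest reads over these sites, had 75.2%. A normalized read, the unit used below, is a read divided by the authors' factor for its library, and 1 read was worth 0.821 to 1.14 normalized reads. Of 10 markers of medium spiny neurons, 1 (Rgs9) held a listed site, and of 11 markers of astrocytes, oligodendrocytes, microglia and endothelium 0 did. Because the table holds differential sites only, these counts do not check the tissue.

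All 6 sites carried more PARP-1 signal after cocaine, by 3.61-fold to 7.20-fold. At each site both cocaine replicates exceeded all 3 saline replicates. The same held for 92.2% of all listed sites, so nothing is read from it. The lowest of the 12 cocaine values was 13.64 normalized reads and the highest of the 18 saline values was 6.55. Summed over the 6 sites, the cocaine replicates held 97.8 and 88.7 normalized reads and the saline replicates 18.1, 19.2 and 27.3, a ratio of the group means of 4.33. Every site was counted on few reads. The 6 sites together rested on 119 and 78 reads in the cocaine libraries and on 17, 21 and 25 in the saline libraries.

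**Figure D1:**
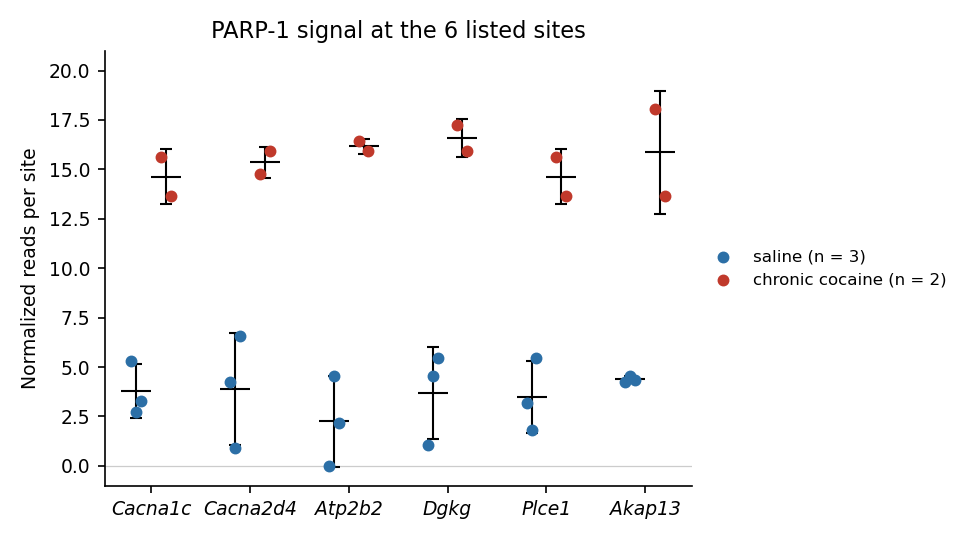
Normalized PARP-1 reads (vertical axis) at the listed site of each of 6 genes. Points are replicates, each a pool of 10 mice, and black bars are the mean and SD of 2 cocaine (red) or 3 saline (blue) replicates. The cocaine points lie between 13.64 and 18.07 and the saline points between 0 and 6.55.

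Calcium entry was represented by both channel genes. Cacna1c encodes the pore-forming subunit of an L-type calcium channel. Its site (chromosome 6, 118910401 to 118911500 in mm9) held 15.61 and 13.64 normalized reads in the cocaine replicates. In the saline replicates it held 5.31, 2.74 and 3.28. No saline value came near the cocaine values, and saline replicate 1 was the highest of its group. The means were 14.6 ± 1.39 (SD, n = 2) and 3.78 ± 1.36 (SD, n = 3), a ratio of 3.87. Pooled reads numbered 31 against 11, which after correction for depth gave a ratio of 3.97 with an exact 95% interval of 1.94 to 8.75. This interval and those that follow account for counting error alone, and reads amplified by PCR and not tagged with molecular identifiers are not independent molecules.

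Cacna2d4 encodes an auxiliary alpha-2-delta subunit of voltage-gated calcium channels, known best from the retina. Its site (chromosome 6, 119186201 to 119187400) held 14.79 and 15.91 normalized reads after cocaine and 4.25, 0.91 and 6.55 after saline. The saline replicates spread more here than at any other of the 6 sites. In saline replicate 2 the site held 1 read and in saline replicate 3 it held 6 reads. The ratio of the means was 3.93, and without saline replicate 3 it was 5.95. Pooled reads numbered 32 against 11 (ratio 4.10, interval 2.01 to 9.01).

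Calcium extrusion was represented by Atp2b2, the gene of a plasma membrane calcium pump. Its site (chromosome 6, 113812801 to 113814000) held 16.43 and 15.91 normalized reads after cocaine and 0, 4.56 and 2.18 after saline. Saline replicate 1 had no read there, which allows a level of up to 3.19 normalized reads in that library (3 reads). Of the 724 higher sites in or near genes with a mean count under 100, 22 (3.04%) had a saline replicate at 0. The ratio of the means was 7.20, the largest of the 6. It rested on 34 against 7 reads (pooled ratio 6.84, interval 2.99 to 18.3). Without saline replicate 2 the ratio was 14.8, so this site's fold was the least precisely known.

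Of the lipid-signalling genes, Plce1 encodes phospholipase C epsilon, which is activated by small GTPases. Its site (chromosome 19, 38762601 to 38763700) held 15.61 and 13.64 normalized reads after cocaine, the same values as at Cacna1c. After saline it held 3.19, 1.82 and 5.46. Read counts this low repeat often. Of the other listed sites, 33 shared the cocaine values of Plce1, and 0 shared all 5 of its values. The ratio of the means was 4.19 (31 against 10 reads, pooled ratio 4.37, interval 2.09 to 9.98).

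Dgkg encodes diacylglycerol kinase gamma, a calcium-binding member of its family. Its site (chromosome 16, 22560201 to 22561300) held 17.25 and 15.91 normalized reads after cocaine and 1.06, 4.56 and 5.46 after saline. One saline replicate stood low, with a single read. The means were 16.6 ± 0.948 (SD, n = 2) and 3.69 ± 2.32 (SD, n = 3), a ratio of 4.49. Pooled reads numbered 35 against 11 (ratio 4.48, interval 2.22 to 9.78).

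Akap13 encodes a scaffold that anchors protein kinase A and activates the GTPase RhoA. Its site (chromosome 7, 82794701 to 82795700) showed the opposite pattern of spread. The saline replicates lay close together at 4.25, 4.56 and 4.37 normalized reads (4, 5 and 4 reads). The cocaine replicates lay apart at 18.07 and 13.64. The ratio of the means was 3.61, the smallest of the 6 (34 against 13 reads, pooled ratio 3.68, interval 1.90 to 7.61).

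In order of log2 ratio of the group means, Atp2b2 (2.85) came first, before Dgkg (2.17), Plce1 (2.07), Cacna2d4 (1.98), Cacna1c (1.95) and Akap13 (1.85). Neighbours in this order differed by 0.02 to 0.68, less than the SD that the replicates give either of them (0.29 to 1.46 on the log2 scale). This SD describes the spread of single replicates and is wider than the error of a ratio of means. All 6 counting intervals overlapped, from 2.99 to 7.61. The order of the 6 genes is therefore not resolved by these data. Their median log2 ratio was 2.02, against 1.86 for the 724 higher sites in or near genes with a mean count under 100. Atp2b2 had the 8th largest log2 ratio among the 1567 higher sites of that count range, while Akap13, with rank 748, lay near their middle. The cocaine mean of Atp2b2 was above that of 55.8% of the 1567 sites, and its saline mean above that of 0.77%.

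**Figure D2:**
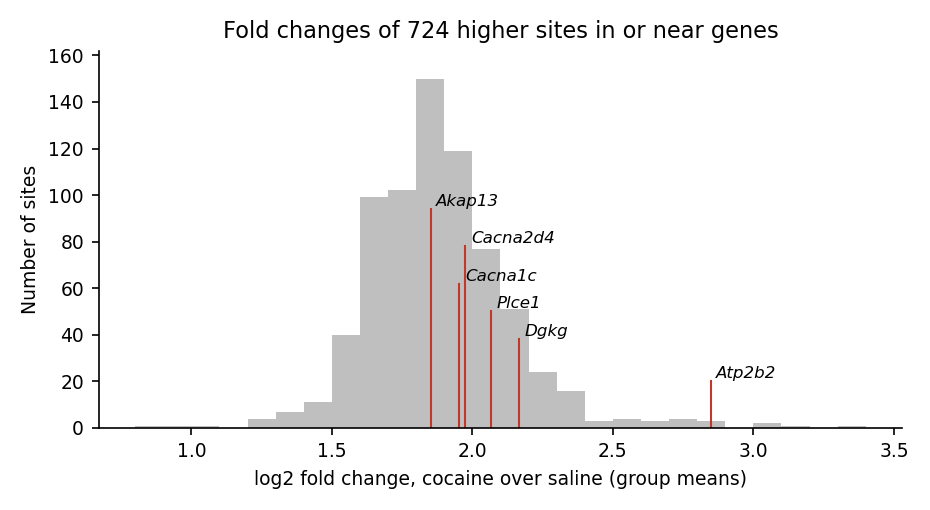
Histogram of the log2 ratio of group means (horizontal axis) at 724 higher sites in or near genes with a mean count under 100, with the number of sites on the vertical axis. Red lines mark the 6 genes, and the height of a line has no meaning. All but Atp2b2 lie between 1.85 and 2.17, within the bulk of the histogram, and that gene lies at 2.85.

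The cocaine values had a sharp lower edge. Over the same 1567 sites the lowest cocaine values were 13.14 (16 reads) in replicate 1 and 13.64 (12 reads) in replicate 2. Cacna1c, Plce1 and Akap13 stood exactly at this minimum in replicate 2, as did 308 (19.7%) of the 1567 sites, these 3 included. None of the 6 stood at the minimum in replicate 1, where they held 14.79 to 18.07.

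Per kilobase of site, the cocaine level was 15.9 ± 3.13 normalized reads at Akap13 and 15.1 ± 0.861 at Dgkg. At Atp2b2 it was 13.5 ± 0.306, at Cacna1c and Plce1 13.3 ± 1.27 and at Cacna2d4 12.8 ± 0.66 (SD, n = 2). The saline level per kilobase ran from 1.87 ± 1.90 at Atp2b2 to 4.39 ± 0.156 at Akap13 (SD, n = 3). Because listed higher sites share the lower edge of cocaine values given above, the narrow range of the cocaine levels is not a result about these genes.

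The authors' deposited table also gives each group's enrichment over a background of their own, and sources used here do not say how that background was made. In the authors' deposited table the enrichment after cocaine was 4.08 at Cacna1c, 3.95 at Atp2b2 and 3.75 at Cacna2d4, where the 1567 higher sites had a median of 2.64. It was 2.94 at Dgkg, 2.38 at Plce1 and 1.72 at Akap13 in the authors' deposited table. After saline it was 1.11 at Cacna1c, 0.99 at Cacna2d4, 0.67 at Dgkg, 0.59 at Plce1, 0.56 at Atp2b2 and 0.50 at Akap13 in the authors' deposited table. In saline, then, 5 of the 6 sites lay below background, as did 68.3% of the 1567 sites. Akap13 had the highest cocaine level per kilobase and the lowest enrichment. Akap13's cocaine mean divided by its cocaine enrichment implies a background of 9.22 normalized reads per kilobase. The same division gave 3.26 at Cacna1c, 3.41 at both Cacna2d4 and Atp2b2, 5.13 at Dgkg and 5.59 at Plce1.

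**Figure D3:**
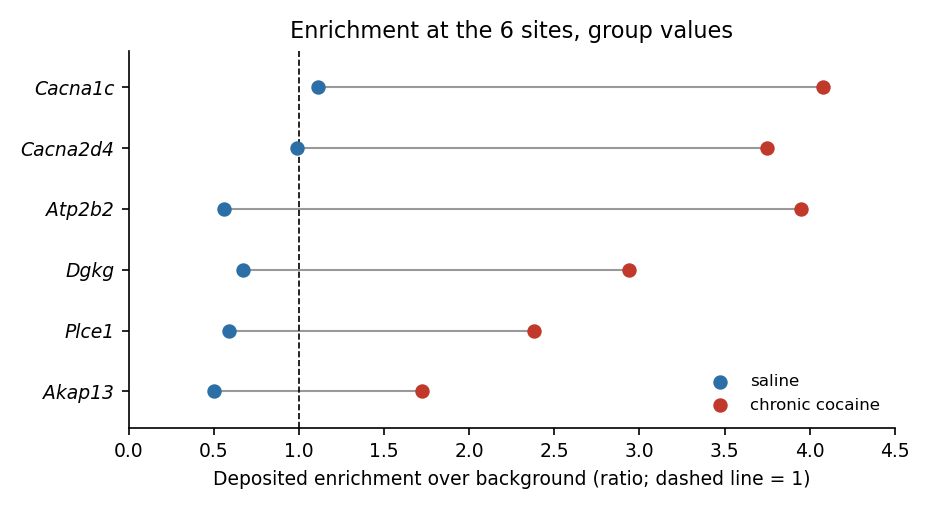
Enrichment over background (horizontal axis, a ratio) from the authors' deposited table for the saline (blue) and chronic cocaine (red) groups at the 6 sites, 1 value per group. The dashed line marks a ratio of 1. Cacna1c alone has its saline point above the line, at 1.11, and the cocaine points run from 1.72 at Akap13 to 4.08 at Cacna1c.

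Gene bodies held 5 of the 6 sites, far from the transcription start, while that of Cacna2d4 lay across the start. Positions follow the transcripts named in the table. The Cacna2d4 site reached from -342 bp to 857 bp relative to the start of NM_001033382, with its midpoint at 257.5 bp. Of the 724 higher sites in or near genes with a mean count under 100, the table classed 16 (2.21%) as Promoter1k, Cacna2d4 included. It put 7 in a separate class, ProximalPromoter, and 55 in Promoter3k, and these are not among the 16. The other 15 Promoter1k sites had log2 ratios from 1.51 to 2.50 with a median of 1.94, and Cacna2d4, at 1.98, lay within them.

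The midpoint of the Atp2b2 site lay 28.0 kb from the start, 19.2% of the way along its 145.7 kb transcript. Cacna1c has the longest transcript, 515.9 kb, and its site lay 147.3 kb from the start, at 28.5% of the length. The Dgkg site lay 96.6 kb along a transcript of 190.7 kb, close to its middle (50.6%). Plce1 and Akap13 had their sites beyond the middle of the gene. That of Plce1 lay at 164.5 kb of 260.9 kb (63.0%) and that of Akap13 at 194.8 kb of 299.1 kb (65.1%). The 5 gene-body sites lay a median of 147.3 kb from the start, against 44.3 kb for the 646 higher gene-body sites of that count range. As a share of transcript length the medians were 50.6% and 57.0%. The 6 transcripts, that of Cacna2d4 with its promoter site included, were long, with a median of 225.8 kb. Those of the 646 sites, all in gene bodies, had a median of 98.9 kb.

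**Figure D4:**
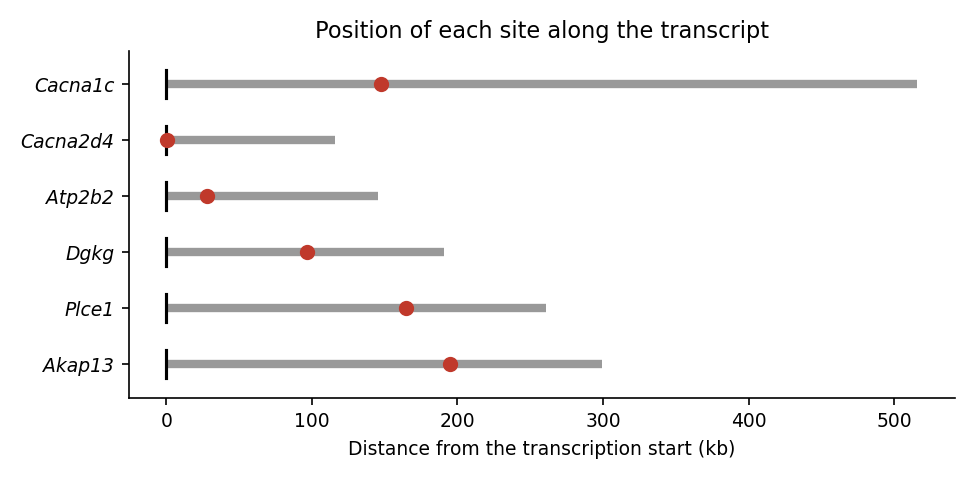
Each grey bar is the annotated transcript of a gene, drawn to scale from its transcription start (black tick) along the horizontal axis in kb, and the red point is the midpoint of its PARP-1 site. Only the Cacna2d4 point sits at the start, and the other 5 lie 28.0 to 194.8 kb downstream.

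These distances hold for 1 transcript per gene. In RefSeq's GRCm38 annotation, a later build than that of the table, the gene record of Atp2b2 spans 298.8 kb, that of Cacna1c 610.1 kb and that of Plce1 304.1 kb, more than the transcripts used in the table. Whether the gene-body sites fall in exons, introns or at other starts was not analysed here.

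Chromosome 6 carried 3 of the 6 sites, and it held 91 listed sites, 86 of them higher. The sites of Cacna1c and Cacna2d4 were neighbours in the table, 274.7 kb apart with 0 listed sites between them, and both were higher by almost the same ratio. In GRCm38 the gene Dcp1b lies on the Cacna2d4 side of Cacna1c, and its record overlaps that of Cacna1c. The nearest listed site to Atp2b2 was 474.3 kb away and to Dgkg 378.0 kb, both at sites for which the table names no gene. For Plce1 it was 412.2 kb away in Lgi1 and for Akap13 470.5 kb away in Sv2b. These neighbours were all higher after cocaine, as were 92.9% of all listed sites, so nothing is read from it. The median distance to the nearest listed site was 409.1 kb over the 1567 higher sites.

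At Cacna2d4 the authors' values for the site and for a window within it differed. The authors' deposited table gives the log2 fold change of the whole site as 1.98 and that of a window within it (119186301 to 119187300) as 2.94. This difference of 0.96 was exceeded at 7 of the 674 higher sites longer than 1000 bp, whose median difference was 0.20 in the authors' deposited table. The Cacna2d4 site rested on 11 saline reads, so a few reads can shift this difference. The window differed from the site by 0.09 at Atp2b2, by -0.09 at Plce1, by -0.10 at Dgkg and by 0 at Cacna1c in the authors' deposited table. Akap13's site was a single window.

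**Figure D5:**
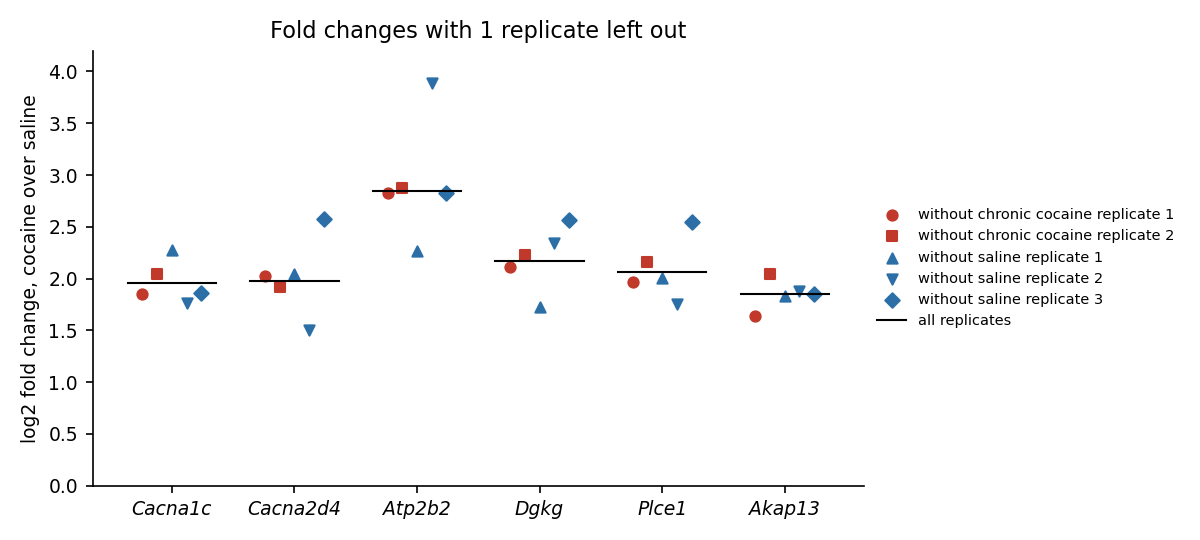
log2 ratio of group means (vertical axis) for each gene with 1 replicate left out, red for a cocaine replicate and blue for a saline one, beside the value with all replicates (black line). Every point lies above 1.5, the lowest is 1.51 at Cacna2d4, and the widest range, 2.26 to 3.89, is that of Atp2b2.

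With 1 replicate left out, the log2 ratio of Akap13 ran from 1.63 to 2.04 and that of Cacna1c from 1.77 to 2.28. It ran from 1.73 to 2.56 at Dgkg, from 1.76 to 2.55 at Plce1 and from 1.51 to 2.57 at Cacna2d4. The largest move came from leaving out a saline replicate at every gene except Akap13, where it came from a cocaine replicate. The lowest saline value was that of replicate 1 at Atp2b2, Dgkg and Akap13 and that of replicate 2 at Cacna1c, Cacna2d4 and Plce1.

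Lists of calcium and lipid signalling genes, 7 in number and including the 6, held 117 genes. Of these, 12 held 15 listed sites, all 15 higher and 0 lower after cocaine, where 97.1% of all listed sites in or near genes were higher. The 6 described above count among them by choice. Of the other 111 genes, 6 (5.41%) held 9 sites, against 3.09% of 21900 protein-coding genes. These signalling genes are long. Among genes of at least 115.9 kb, the length of the shortest of the 6, a site was held by 6 of 46 of the other list genes and by 278 of 1990 (14.0%) of protein-coding genes without the 6. At equal minimum length, the lists' share was near that of these protein-coding genes.

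Among channel subunits 3 of 26 genes had a site, and besides the pair above this was Cacna1d, the gene of another L-type pore-forming subunit. One Cacna1d site (chromosome 14, 30984801 to 30985800) held 15.8 ± 0.212 normalized reads after cocaine and 5.27 ± 3.02 after saline. The other (31137501 to 31139100) held 21.3 ± 1.22 and 8.24 ± 2.38 (SD, n = 2 and 3). Their ratios of 2.99 and 2.59 lay below those of Cacna1c and Cacna2d4. Both ratios fell inside the counting intervals of Cacna1c (1.94 to 8.75) and Cacna2d4 (2.01 to 9.01), so this order is not resolved.

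Of 18 pumps and exchangers, Slc24a4, the gene of a sodium, calcium and potassium exchanger, had the only site besides Atp2b2, at 13.8 ± 0.233 against 3.27 ± 2.21 normalized reads. The ratio at Slc24a4 was 4.22. Genes of calcium release from stores and of store-operated calcium entry, counted as 1 list, had none of the 6 among them, yet 2 of 11 held 4 sites. Ryr2, a ryanodine receptor gene, held 3 of these, with ratios of 3.22, 3.47 and 4.39. Ryr3, its relative, held 1 with a ratio of 3.63.

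Dgkg was the only 1 of 10 diacylglycerol kinase genes with a listed site, Plce1 the only 1 of 15 phospholipase C genes and Akap13 the only 1 of 15 anchoring protein genes. Of 22 calcium- and lipid-dependent kinase genes, the protein kinase C genes Prkch and Prkce had a site each, with ratios of 3.51 and 3.35. A gene with no listed site may still carry PARP-1, since the table gives no sites that did not differ.

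For each gene, the listed gene outside the 6 with the most similar values over the 5 libraries was found by Euclidean distance on log2(normalized reads + 1). It was Sdk2 for Cacna1c (distance 0.208), Zbtb40 for Cacna2d4 (0.208), Slc7a2 for Atp2b2 (0.397), C2cd2 for Dgkg (0.225), Aknad1 for Plce1 (0.232) and Syne1 for Akap13 (0.267). The distance was largest for Atp2b2. Each of these pairs had the same values in 4 of the 5 libraries, except Atp2b2 and Slc7a2, which shared 2.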

How the data were processed

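PARP-1 ChIP-seq libraries were analysed from the authors' deposited table of sites, whose name gives diffReps and a negative binomial test. The submitters' processing notes name mm9 and CASAVA 1.8.2; sources used here do not give the aligner, duplicate handling or site threshold. Per the labels' protocols, fragments of 250 to 350 bp were amplified with 21 PCR cycles. Control columns were taken as saline, as in the series design. Per the file headers, the values used were normalized read counts per replicate, the mean signal per group, an enrichment ratio over background, a log2 fold change per site and per window, and p-values with their adjusted form (used only to narrow the list). Of 8635 normalized counts, 100% were whole multiples of 1 value per library within 0.1 read, which gave the reads.

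Ratios of group means, SDs, pooled ratios with exact Clopper-Pearson 95% intervals, positions and list counts were computed in Python 3.11.15. Packages were scipy 1.17.1, numpy 2.4.6 and pandas 2.3.3. On simulated data, only the recovery of reads and of the log2 ratio of group means was checked. No significance test was run. The members and gene lists were chosen with earlier results of these data known. Sites whose mean count reached 100 were set apart. The genes named were the 6, list genes with a site, and the most similar gene to each. Gene names were matched to RefSeq's GRCm38 table, 687 of 688.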

Additional observations from a re-analysis of the deposited data

How the results depend on the processing

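The 6 sites were higher after cocaine, and their groups did not overlap, with each of the 5 replicates left out in turn. This follows from groups that do not overlap with all replicates present, so nothing is read from it. At an authors' adjusted p under 0.001, 3 of the 6 sites (Atp2b2, Cacna2d4 and Dgkg) passed, with a median log2 ratio of 2.17, as did 24.6% of the 724 higher sites in or near genes with a mean count under 100 (21.7% of all listed sites passed and were higher). With the 6 chosen on this contrast, nothing is read from the difference. The median log2 ratio of the 6 sites, 2.02 with all replicates, ran from 1.82 to 2.55 with 1 replicate left out. It was 1.77 with 1 added to the group means, 1.89 with 0.5 added and 2.01 with group medians. Scaling by the groups' total reads over the listed sites lowered every pooled log2 ratio by the same amount (a shift of -0.44) and gave a median of 1.64. Scaling by the sites whose mean count reached 100 gave 2.07. Of 60 values for single sites under these alternatives, 0 reversed. Only the rescaled values could have reversed, because the other alternatives cannot reverse a site whose groups do not overlap. One value moved by more than its SD, that of Akap13 to 1.44 under scaling by total reads. A wide SD lets large moves pass by this measure, such as that of Atp2b2 to 14.8-fold without saline replicate 2. Among listed sites in or near genes with a mean count under 100, 97.1% had groups that did not overlap. No paired analysis was possible because the labels number no replicates. With 7 to 13 reads per site in saline, ratios between the 6 genes could not be told apart.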
